A study of Homo sapiens with 6 samples.

Results

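The genes described here encode the proteins of the cytosolic ribosome. They were chosen by gene symbol alone: symbols made of RPL or RPS, a number and at most one of the letters A, X or L, together with RPLP0, RPLP1, RPLP2, RPSA and RPL36AL. The rule found 80 of the 30741 genes of the deposited table, 32 for the small subunit and 48 for the large subunit. RNA-seq had been run on MOLM-13, an established human acute myeloid leukaemia cell line labelled WT. In the TSN group the cells had received 20 nM TSN for 48 h, and in the DMSO group they had received the solvent for 48 h, with 3 libraries per group, biological replicates by the series text. TSN is given here as the labels spell it. The titles of the samples give the groups, although the treatment field reads DMSO on all 6 samples. The data columns that carry no compound name were taken as DMSO because it is the only other group, and every comparison below rests on that reading.

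A ribosome is built from ribosomal RNA and, for nearly every ribosomal protein, a single copy. The small subunit reads the mRNA, and the large subunit joins amino acids and holds the tunnel through which the new protein leaves. Most ribosomal protein mRNAs start with a run of pyrimidines, the 5′ terminal oligopyrimidine (TOP) tract, through which the mTOR pathway and the RNA-binding protein LARP1 control their translation and stability. In growing leukaemia cells these mRNAs are among the most abundant, and MYC is known to raise their transcription.

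The tract is shown here because it is the sequence feature that the members share and the selection rule did not use. Promoter windows were listed in RefSeq (GRCh38.p14) for 64 of the 80 members. A C within 5 bases of an annotated start, followed by at least 4 C or T, was found in 54 of these 64 genes (84.4%), against 25.2% of 27305 genes with such a window. The tracts were 5 to 22 bases long, with a median of 10.5 bases. Each line gives 30 bases, 10 before the annotated start and 20 from it, 5′ to 3′ on the gene's strand, with the tract in capitals. The first lines are abundant members, members at or near an end of the fold changes below, and RPS27, shown beside its paralogue; the last ones have no tract in this window.
RPS6, chr9:19380217-19380246, minus strand: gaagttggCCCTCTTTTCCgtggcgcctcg
RPLP0, chr12:120201092-120201121, minus strand: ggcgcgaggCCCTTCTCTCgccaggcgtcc
RPL3, chr22:39319604-39319633, minus strand: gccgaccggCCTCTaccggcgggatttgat
RPL39, chrX:119791611-119791640, minus strand: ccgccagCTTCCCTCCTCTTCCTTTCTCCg
RPS21, chr20:62387093-62387122, plus strand: ctagctgCTTCCTTTCTCTCTCgcgcgcgg
RPL36A, chrX:101391001-101391030, plus strand: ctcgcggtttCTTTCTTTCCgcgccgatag
RPS10, chr6:34426050-34426079, minus strand: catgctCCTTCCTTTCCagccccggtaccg
RPS27, chr1:153990752-153990781, plus strand: cgctttcgCTCCTTTCCggcggtgacgacc
RPS27L, chr15:63157458-63157487, minus strand: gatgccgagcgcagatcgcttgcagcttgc
RPL17, chr18:49492446-49492475, minus strand: ttccctaagcagcctgaggtgagtgtttct
RPS29, chr14:49598691-49598720, minus strand: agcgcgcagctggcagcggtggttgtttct
RPS27 and its paralogue RPS27L differ in this window, the tract being found only in RPS27. In the 300-base promoters of the same genes, on either strand, the GABP core CCGGAAG was found in 35.9% of the members against 12.2% of all genes, the YY1 core AAGATGG in 12.5% against 7.11%, and the TATA core TATAAA in 7.81% against 14.0%. Matches of CCGGAAG and AAGATGG can overlap, since the first ends as the second begins. A match of letters is a description and not a binding site.

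Levels were deposited as FPKM, fragments scaled to gene length and to the depth of the library. The steps between low values corresponded to 37151686 to 50408315 fragments per library, with 95.8% to 96.4% of low values of genes with a single exon block coming out whole within 0.1 of a fragment. Of the markers of the line, MPO, SPI1, CEBPA, LYZ and CD33 were present, while ELANE, PRTN3, AZU1 and CD68 were at or near 0, and 9 of 14 listed markers passed the filter used for testing. MEIS1, at 0.14 to 0.47 FPKM, did not pass it, and HOXA9 was low, at 1.065 to 1.13 FPKM in TSN and 0.61 to 0.66 FPKM in DMSO. The summed level of these markers was 2185 to 2286 FPKM in TSN and 3582 to 3863 FPKM in DMSO, most of it MPO. MPO was called lower (log2 fold change -0.82), while the median over the 9 tested markers was -0.08. Without a call, SPI1, CSF1R and HOXA9 were higher in TSN with no overlap (log2 fold changes 0.69, 0.50 and 0.35). CEBPA was lower with no overlap (-0.68), also without a call. Over all tested genes, 16.2% were higher and 22.9% lower with no overlap. Lymphoid markers summed to 85.2 to 216 FPKM in TSN and 28.1 to 34.9 FPKM in DMSO, most of it NKG7, with 4 of 9 tested, 2 called higher (NKG7 and CD3D), and CD3E and CD3G at or near 0. Below the filter, CD2 was lower in TSN (0.10 to 0.20 FPKM against 0.55 to 0.74 in DMSO) and GNLY higher (0.41 to 0.70 FPKM against 0.22 to 0.26 in DMSO). None of the erythroid markers passed the filter, and the epithelial and fibroblast markers summed to 18.9 to 37.2 FPKM in TSN and 11.1 to 12.8 FPKM in DMSO. Of the 3 tested, KRT18 was called higher, KRT8 went the other way without a call (log2 fold change -0.51, limma adjusted p = 0.149) and EPCAM hardly differed (0.04). The part of these differences in the ribosomal protein values was not tested.

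The members moved together from library to library, and the libraries of a group did not agree. The ribosomal protein genes made up 15.4%, 12.1% and 21.3% of the summed FPKM in TSN 1, 2 and 3, against 15.6%, 14.9% and 11.9% in DMSO 1, 2 and 3. The share averaged 16.3% ± 4.64 in TSN and 14.2% ± 2.01 in DMSO (SD, n = 3 each), so the difference of the means is smaller than the spread within TSN. In TSN 3 the share was the highest of all libraries, and TSN 2 and DMSO 3 had the lowest. In bulk RNA, fewer cells of a kind and less RNA per cell cannot be told apart. Small subunit genes held 5.57%, 4.34% and 7.92% in TSN and 5.69%, 5.31% and 4.15% in DMSO. Large subunit genes held 9.80%, 7.79% and 13.4% in TSN and 9.95%, 9.64% and 7.71% in DMSO. The large to small ratio stayed between 1.69 and 1.80 in TSN and between 1.75 and 1.86 in DMSO, so the subunits moved side by side.

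**Figure D1:**
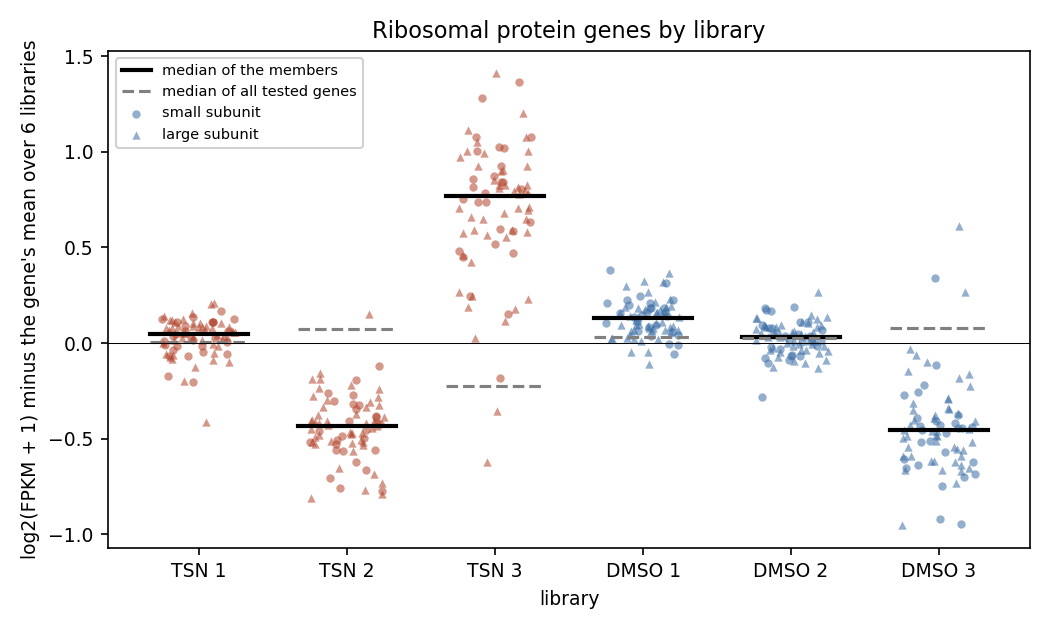
Each point is 1 of the 76 tested ribosomal protein genes, as its log2(FPKM + 1) in a library (x axis) minus its own mean over the 6 libraries (y axis). Solid bars mark the members' median (0.05, -0.43 and 0.77 in TSN 1 to 3; 0.13, 0.03 and -0.46 in DMSO 1 to 3) and dashed bars the median of all tested genes. Most members stand high in TSN 3 and low in TSN 2 and DMSO 3.

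On the log2(FPKM + 1) scale, the 76 members that passed the filter had a median deviation from their own mean of 0.05, -0.43 and 0.77 in TSN 1 to 3, and of 0.13, 0.03 and -0.46 in DMSO 1 to 3. The same medians over all 11440 tested genes were 0.00, 0.07 and -0.23 in TSN and 0.03, 0.03 and 0.08 in DMSO. In the plot of members by library, TSN 3 held the highest value of 71 of the 76 members. The lowest value lay in DMSO 3 for 38 members and in TSN 2 for 35. Across the 6 libraries the highest level of a member was 1.21 to 5.21 times its lowest, with a median of 2.41 times.

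Which direction the members took depended on which libraries were set against each other. In TSN 3, 72, 71 and 73 of 76 members were higher than in DMSO 1, 2 and 3. In TSN 2, 0, 2 and 38 members were higher than in DMSO 1, 2 and 3. In TSN 1, 22, 38 and 71 were higher than in DMSO 1, 2 and 3. Differences within a group were about as large as those between groups: the members' median difference was -1.21 for TSN 2 minus TSN 3, and 0.59 for DMSO 1 minus DMSO 3. TSN 1 lay close to DMSO 2, with a median difference of -0.0028. The 51 tested members with a tract had medians of 0.04, -0.42 and 0.79 in TSN and 0.14, 0.03 and -0.46 in DMSO, and the 10 without one had 0.06, -0.32 and 0.71 in TSN and 0.08, 0.07 and -0.45 in DMSO. Members with and without a tract within 5 bases of the annotated start thus followed the same libraries. Some of those without one have such a run farther from that start, so this split need not separate TOP mRNAs from others.

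Among the members, the shortest genes differed most between libraries. Members with a coding length of up to 300 bp (11 genes) had a median difference, TSN 3 minus DMSO 3, of 1.66 on the log2 scale, against 0.74 for 202 other protein-coding genes of that length. For members of 600 to 1000 bp (19 genes) it was 1.11, against 0.02 for 1821 other genes. Beyond the members' usual lengths the other genes went the opposite way, with -0.39 at 1000 to 2000 bp and -0.83 above 2000 bp. In each of the 4 length classes with 11 members or more, the members' difference between these libraries was above that of other genes of similar length. With each library's trend with length and GC content removed, the members' medians were 0.04, -0.27 and 0.44 in TSN 1 to 3, and 0.11, 0.02 and -0.29 in DMSO 1 to 3. TSN 3 stayed the highest and TSN 2 and DMSO 3 the lowest, at smaller distances.

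**Figure D2:**
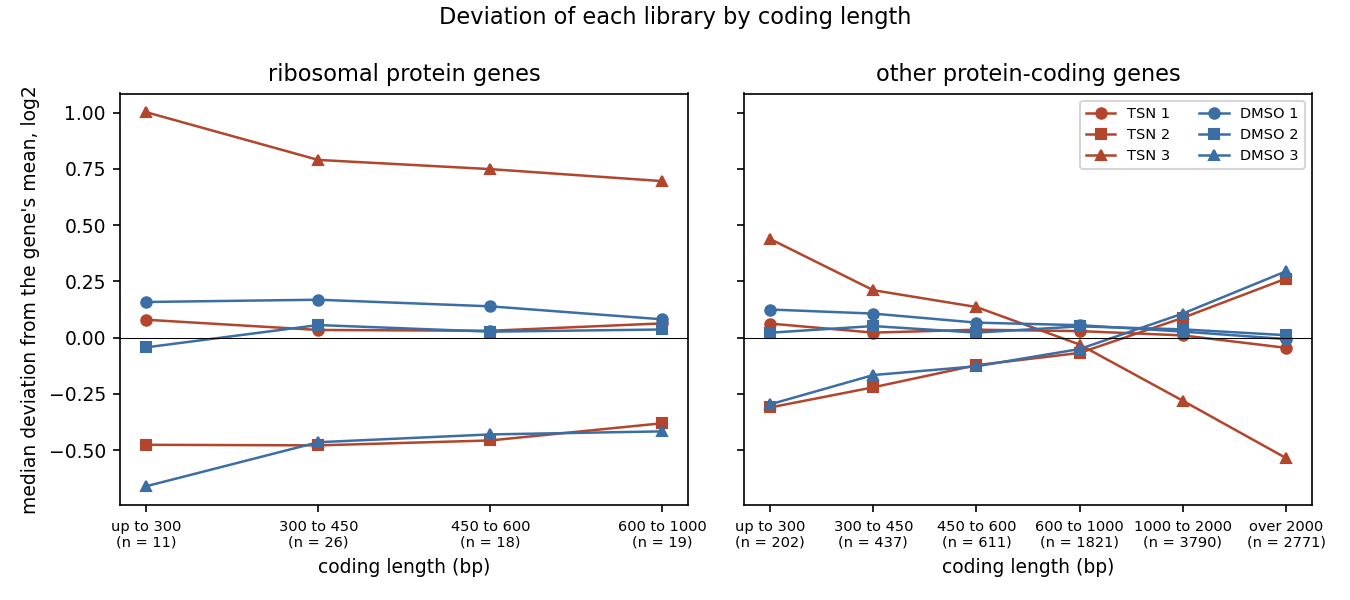
Median deviation of each library from the gene's mean over 6 libraries (log2, y axis) by coding length (x axis, n genes per class), for ribosomal protein genes on the left and other protein-coding genes on the right. TSN 3 runs downward with length while TSN 2 and DMSO 3 run upward, and at each length shown for both the members lie farther from 0 in these 3 libraries than the other genes.

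Between TSN and DMSO, no ribosomal protein gene passed the test. The test was limma on log2(FPKM + 1) over the 11440 genes that reached 1 FPKM in 3 libraries or more, with Benjamini-Hochberg adjusted p below 0.05. It called 0 of the 76 members, against 14.9% of all tested genes (7.71% higher and 7.2% lower in TSN). With the length and GC trend removed, 2 members were called lower, RPL17 and RPS9, against 17.1% of all genes lower (30.4% in either direction). At an unadjusted p below 0.05 the fit without that step passed 1 member (RPL17), against 30.8% of all genes. Groups did not overlap for 0 members with TSN higher (16.2% of all genes) and 2 members with TSN lower (22.9% of all genes), RPL17 and RPS10. The median log2 fold change was 0.21 over the members and -0.10 over all tested genes; 66 members lay above 0 and 10 below. The medians were 0.20 for 28 small subunit genes and 0.24 for 48 large subunit genes. The standard errors of the members were larger than usual, with a median of 0.34 against 0.20 over all tested genes.

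**Figure D3:**
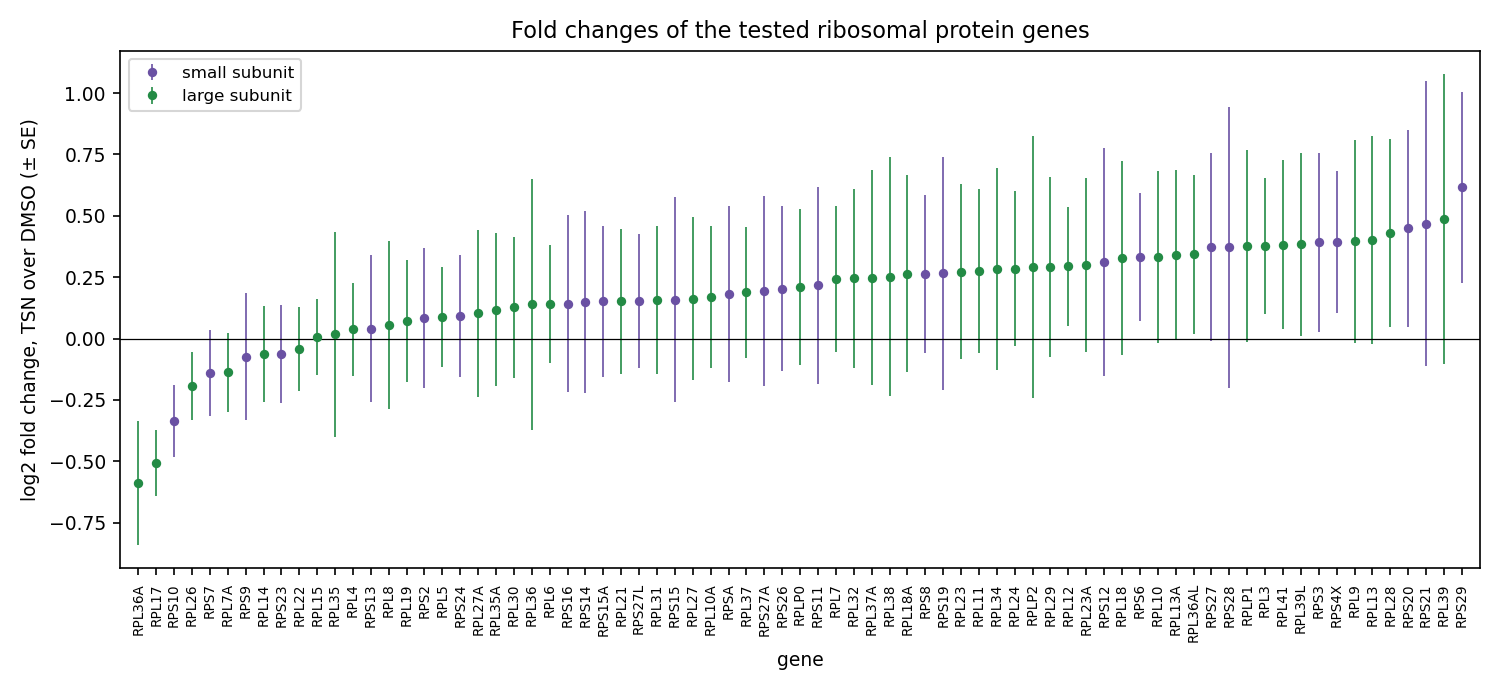
Log2 fold change, TSN over DMSO (y axis), of the tested ribosomal protein genes reported here (x axis, in order of fold change), with bars of ± 1 standard error from limma. Values run from -0.59 (RPL36A) to 0.62 (RPS29), and the bars of most members cross or come near 0.

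The sign of the median depended on the libraries kept. It was 0.21 with all 6 libraries, -0.11 without TSN 3 (15 members above 0), 0.01 without DMSO 3 (42 above 0) and 0.51 without TSN 2 (70 above 0). With both TSN 3 and DMSO 3 left out it was -0.27, with 2 members above 0 and 74 below, while the median of all genes was -0.01. In that comparison of 2 libraries against 2, groups did not overlap for 33 members, all lower in TSN, against 34.9% of all genes lower; 1 member was called, RPL17 (limma adjusted p = 0.0441), against 27.6% of all genes. Without TSN 2, groups did not overlap for 18 members with TSN higher, against 20.7% of all genes. With TSN 3 alone left out, 25 of the 76 members kept their sign. Only 8 of the 76 members kept their sign both with any single library left out and without TSN 3 and DMSO 3 together. They were RPL3 and RPS29 above 0 and RPL17, RPL26, RPL36A, RPL7A, RPS10 and RPS7 below.

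**Figure D4:**
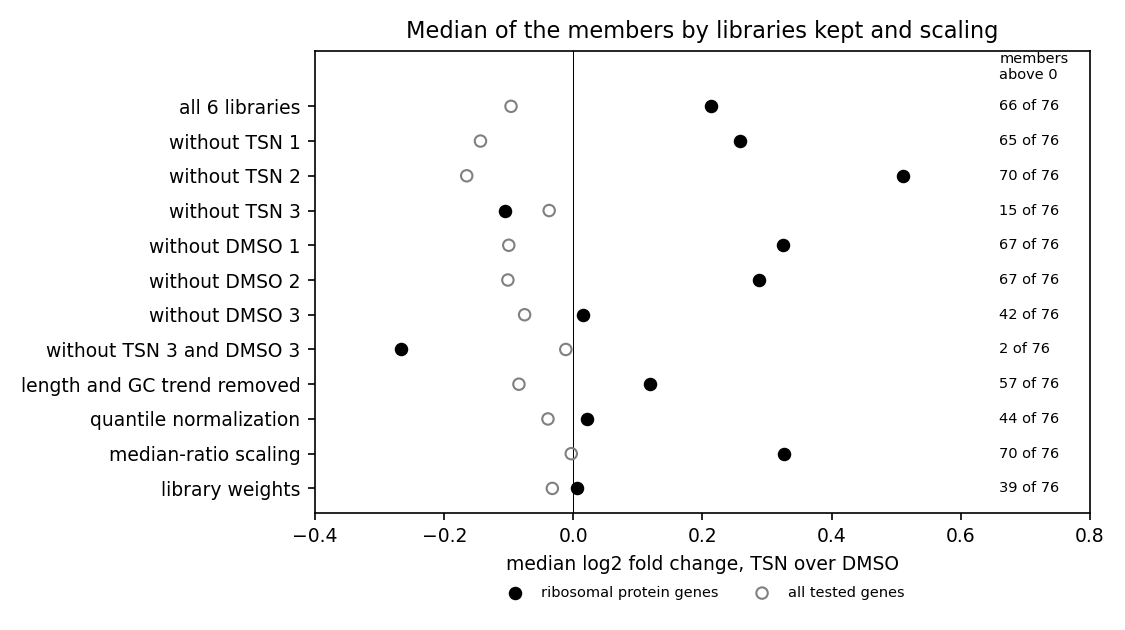
Median log2 fold change, TSN over DMSO (x axis), of the 76 ribosomal protein genes (filled) and of all tested genes (open) for each choice of libraries or scaling (rows), with the number of members above 0 at the right. The members' median runs from -0.27 without TSN 3 and DMSO 3 to 0.51 without TSN 2.

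Among the small subunit proteins, RPS6, the phosphorylated target of the S6 kinases, had the highest level per length of all members. Its level was 4293, 3472 and 5958 FPKM in TSN, against 3943, 3788.5 and 2977 FPKM in DMSO. The groups overlapped, and the log2 fold change was 0.33 ± 0.26 (SE; limma adjusted p = 0.432). RPS12 was at 1985, 1147 and 3649 FPKM in TSN, against 2158, 1782 and 1129 FPKM in DMSO, with TSN 2 and DMSO 3 nearly equal. RPSA, also known as the laminin receptor and a part of the small subunit, was at 929, 658 and 1612 FPKM in TSN, against 1032, 960.0 and 682 FPKM in DMSO. RPS19, the member most often mutated in Diamond-Blackfan anaemia, was at 383, 231 and 797 FPKM in TSN, against 436, 388 and 239.5 FPKM in DMSO. In RPS12, RPSA and RPS19 the highest value was TSN 3, TSN 1 lay below DMSO 1, and the groups overlapped. RPS27A, made as a fusion with ubiquitin, was at 903, 603 and 1598 FPKM in TSN, against 1014, 914 and 626 FPKM in DMSO. Of 16 members mutated in Diamond-Blackfan anaemia 15 were tested, 0 were called, and their log2 fold changes ran from -0.34 to 0.62 with a median of 0.16.

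The small subunit also held the member of highest log2 fold change, RPS29, a short zinc-binding protein of the subunit head. RPS29 was at 7.05, 5.24 and 14.7 FPKM in TSN, against 7.05, 5.14 and 3.45 FPKM in DMSO. Its log2 fold change was 0.62 ± 0.39 (SE; limma adjusted p = 0.333), with TSN 3 the highest library, DMSO 3 the lowest and TSN 1 level with DMSO 1; without TSN 3 it was 0.23, and without both TSN 3 and DMSO 3 it was 0.01. RPS21 was at 198, 107 and 473 FPKM in TSN, against 228, 174 and 94.7 FPKM in DMSO (log2 fold change 0.47 ± 0.58, adjusted p = 0.626 by limma). RPS20 was at 253, 163 and 467 FPKM in TSN, against 240.1, 214 and 147 FPKM in DMSO (log2 fold change 0.45 ± 0.40, adjusted p = 0.490 by limma). In RPS21 the lowest value in TSN lay below DMSO 1 and 2, and likewise in RPS20. RPS7, which can bind MDM2, was lower than DMSO 1 and 2 in TSN 1 and 2, at 224, 189.6 and 260.2 FPKM in TSN, against 257, 267 and 216 FPKM in DMSO. RPS23, a protein of the decoding centre, was at 111, 89.3 and 133 FPKM in TSN, against 129, 121 and 96.2 FPKM in DMSO (log2 fold change -0.06).

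Of the large subunit proteins, RPL3, which lies near the peptidyl transferase centre, was at 2250.2, 1752 and 3202 FPKM in TSN, against 1978, 1991 and 1464 FPKM in DMSO. Its log2 fold change was 0.38 ± 0.28 (SE; limma adjusted p = 0.400), and without both TSN 3 and DMSO 3 it was 0.00. RPL6 was at 1941, 1532 and 2489 FPKM in TSN, against 1882, 1966.5 and 1492 FPKM in DMSO. RPL10, which joins the large subunit late in its assembly, was at 678, 465 and 1115 FPKM in TSN, against 664, 613 and 431 FPKM in DMSO. These 3 genes overlapped between groups, with TSN 3 highest. Among the members of highest fold change, RPL13 was at 1131, 764 and 2255 FPKM in TSN, against 1171, 1034 and 697 FPKM in DMSO. RPL28 was at 114, 82.8 and 222 FPKM in TSN, against 118, 101 and 71.5 FPKM in DMSO. RPL39, a very small protein of the exit tunnel, had the widest range of any tested member, at 124, 68.1 and 312 FPKM in TSN, against 146, 109 and 59.9 FPKM in DMSO. The log2 fold changes of RPL13, RPL28 and RPL39 were 0.40, 0.43 and 0.49, with standard errors of 0.42, 0.38 and 0.59, so each error was close to or above the change itself.

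The P stalk of the large subunit recruits the elongation factors and consists of RPLP0 at its base and pairs of RPLP1 and RPLP2. RPLP0 was at 2305, 1713.5 and 3676 FPKM in TSN, against 2363, 2326 and 1709 FPKM in DMSO. RPLP1 was at 1173, 748 and 1958 FPKM in TSN, against 1175, 977 and 684 FPKM in DMSO. RPLP2 was at 1320.4, 755 and 3005 FPKM in TSN, against 1567, 1331 and 785 FPKM in DMSO. Their log2 fold changes lay between 0.21 and 0.38, none was called, and in all 3 genes TSN 3 was highest and TSN 2 was below DMSO 1 and 2.

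RPL5 and RPL11 form the 5S particle with 5S rRNA and hold MDM2 back from p53 when ribosome assembly fails. RPL5 was at 1734, 1370.1 and 1938 FPKM in TSN, against 1635, 1696 and 1382 FPKM in DMSO. Its range, 1.41 times from lowest to highest, was narrow for a member. RPL11 was at 547, 382 and 905 FPKM in TSN, against 530.5, 519 and 387 FPKM in DMSO. The log2 fold changes were 0.09 ± 0.20 for RPL5 and 0.27 ± 0.33 for RPL11 (SE), and neither was called. The assembly partners of this particle differed from it: RRS1, which with RPF2 brings it into the large subunit, was at 11.6, 12.2 and 8.65 FPKM in TSN, against 41.5, 41.2 and 38.4 FPKM in DMSO. The TSN libraries of RRS1 all lay below the DMSO libraries (log2 fold change -1.82 ± 0.16 SE, limma adjusted p = 0.00253). RPF2 was at 16.1, 13.4 and 17.3 FPKM in TSN, against 29.7, 28.0 and 24.2 FPKM in DMSO (log2 fold change -0.77 ± 0.15 SE, limma adjusted p = 0.0222). Of 8 tested genes of the 5S particle and MDM2 list, these 2 fell and none rose, beside 7.2% lower and 7.71% higher over all genes. MDM2 itself was at 9.65, 8.45 and 9.54 FPKM in TSN, against 12.4, 10.5 and 11.0 FPKM in DMSO, and was not called; it is named here, outside the rule for named genes, for its role.

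Some members did not follow the rest. RPL17, a protein of the tunnel exit on chromosome 18 (49488453 to 49492523, minus strand), was at 14.4, 12.1 and 11.8 FPKM in TSN, against 18.2, 18.7 and 18.7 FPKM in DMSO. All TSN libraries lay below all DMSO libraries, and TSN 3 was the lowest library and not the highest. The log2 fold change was -0.51 ± 0.13 (SE), and the adjusted p of 0.0505 by limma missed the threshold by little. RPL17 passed the threshold without TSN 3 (limma adjusted p = 0.0354) and with the length and GC trend removed (0.0323), among other settings, and the adjusted p ran from 0.000131 to 0.278 over all alternatives. RPS10, a protein of the subunit head on chromosome 6 (34417454 to 34426125, minus strand), was at 3.52, 3.79 and 3.58 FPKM in TSN, against 4.18, 4.86 and 5.59 FPKM in DMSO. Its groups did not overlap either, with a log2 fold change of -0.34 ± 0.15 (SE; limma adjusted p = 0.177). RPL36A, a large subunit gene on chromosome X (101390824 to 101396154, plus strand), was at 3.43, 5.54 and 2.84 FPKM in TSN, against 5.66, 5.28 and 8.01 FPKM in DMSO. TSN 2 of RPL36A lay above DMSO 2, so the groups overlapped (log2 fold change -0.59 ± 0.25 SE, limma adjusted p = 0.175). RPL26, another tunnel exit protein, was at 12.3, 11.8 and 13.8 FPKM in TSN, against 15.5, 15.0 and 13.2 FPKM in DMSO. RPL14, with a log2 fold change of -0.06, was highest in TSN 3 like most members, at 138, 109 and 164 FPKM in TSN, against 154, 151 and 121 FPKM in DMSO.

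RPL17, RPS10 and RPL36A share exons in the GENCODE 29 annotation with read-through genes that run into their neighbours. The part of the exon bases shared with any other gene was 35.3% for RPL17 (RPL17-C18orf32, small nucleolar RNA genes and another annotated gene together), 39.4% for RPS10 (RPS10-NUDT3) and 8.40% for RPL36A (RPL36A-HNRNPH2), and nothing used here states how the authors counted fragments there. The values of these 3 genes are therefore uncertain. RPL17 also had 18 pseudogene rows that summed to more than the gene, 61.8 FPKM on average over the libraries.

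Of the 3 paralogue pairs whose members both fit the symbol rule, RPL39 with RPL39L and RPS27 with RPS27L had the same libraries at their highest and lowest values, and RPL36A with RPL36AL did not. RPL36AL, a retrotransposed copy of RPL36A on chromosome 14, was at 182, 118 and 257 FPKM in TSN, against 164, 158 and 104 FPKM in DMSO. RPL36AL was highest in TSN 3, where RPL36A was lowest, and lowest in DMSO 3, where RPL36A was highest. RPL39L, a copy of RPL39 known from testis, was at 29.4, 19.7 and 55.5 FPKM in TSN, against 26.8, 27.5 and 19.1 FPKM in DMSO. RPS27 was at 326, 224 and 553 FPKM in TSN, against 337, 298 and 185 FPKM in DMSO. RPS27L, a copy of RPS27 that p53 can induce, was at 3.32, 2.57 and 5.73 FPKM in TSN, against 3.57, 3.81 and 2.44 FPKM in DMSO. None of RPL36AL, RPL39L or RPS27L was called, with log2 fold changes of 0.34, 0.38 and 0.15.

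With the members' median of each library subtracted from every gene, the question becomes which members differ from the rest of the ribosome. In that fit limma called 0 of 76 members, against 0% of all genes, with 541 of the 11440 genes and 0 members at an unadjusted p below 0.05 (4.73% of all genes). Groups did not overlap for 9 members with TSN higher, against 3.63% of all genes, and for 1 member with TSN lower, against 7.74% of all genes. The subtraction removes the variation that members share and adds it to the other genes: the median standard error was 0.20 for members and 0.54 for all genes. The counts for members and for all genes are thus of unequal precision. Among the 9 members were RPL13, RPL18, RPL28, RPLP1, RPS20, RPS27, RPS29 and RPS3, named after their values were seen where no other rule names them. RPS3, which lies at the mRNA entry, stood 1.96, 1.96 and 1.81 log2 units above the members' median in TSN, against 1.77, 1.69 and 1.78 in DMSO, a difference of 0.16 ± 0.13 (SE; limma adjusted p = 0.892). RPL35, the 1 member on the lower side, stood 0.65, 0.56 and 0.70 log2 units above the median in TSN, against 0.89, 0.80 and 0.86 in DMSO, a difference of -0.21 ± 0.15 (SE; limma adjusted p = 0.892). These differences were small beside the library shift of the whole set. Without both TSN 3 and DMSO 3, RPL3 and RPS6 were called higher relative to the members' median, each by 0.37 (limma adjusted p = 0.0429 and 0.0134), against 6.44% of all genes called higher in that fit.

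Near the floor stood 8 members, with a mean below 5 FPKM or too few libraries at 1 FPKM to be tested. RPS25 had about 4, 2 and 1 fragments in TSN and 0, 2 and 1 in DMSO, as 0.0543, 0.0309 and 0.0181 FPKM in TSN, against 0, 0.0328 and 0.0184 FPKM in DMSO. A fold change of RPS25 has no meaning at this depth. RPS18 was at 0.930, 0.428 and 0.716 FPKM in TSN, against 0.902, 0.866 and 0.437 FPKM in DMSO. RPS3A was at 0.663, 0.444 and 1.16 FPKM in TSN, against 0.754, 0.614 and 0.229 FPKM in DMSO. RPS25, RPS18 and RPS3A were not tested, and their groups overlapped. RPL7A was at 1.31, 1.01 and 1.82 FPKM in TSN, against 1.72, 1.71 and 1.36 FPKM in DMSO. RPS9 was at 3.90, 3.22 and 6.53 FPKM in TSN, against 5.28, 5.27 and 3.62 FPKM in DMSO. RPS10 and RPS27L, given above, also belong here. All of RPS25, RPS18, RPS3A, RPL7A, RPS9 and RPS10 are core parts of the ribosome, so their low deposited values stand beside members at 1000 FPKM and more.

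**Figure D5:**
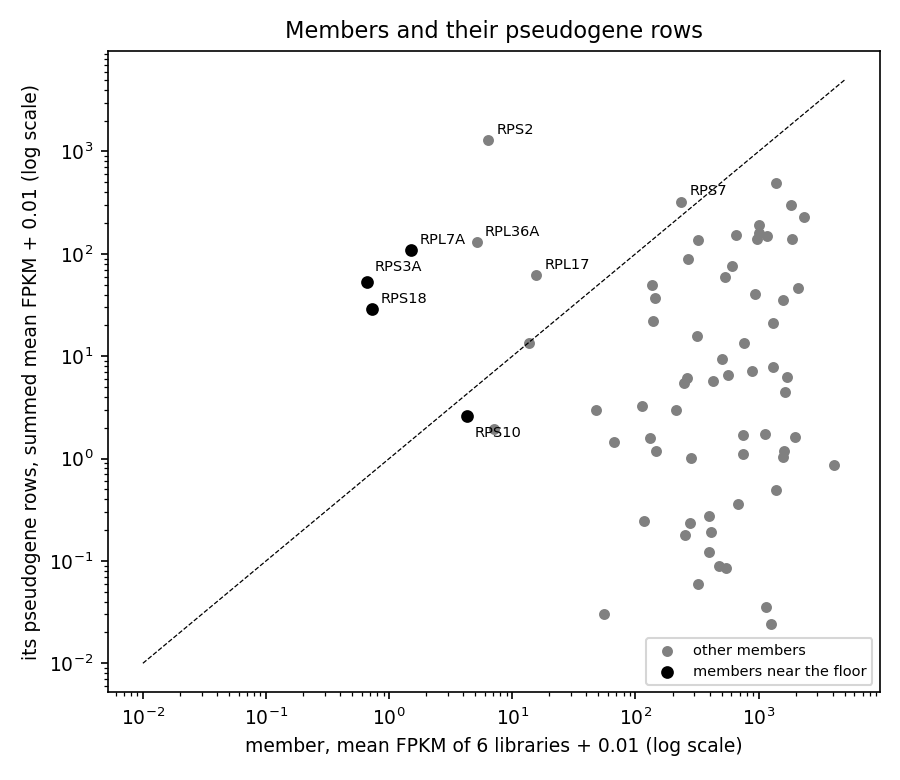
Mean FPKM over the 6 libraries of members with pseudogene rows (x axis, log scale) and summed mean FPKM of those rows (y axis, log scale), each with 0.01 added; the dashed line marks equal values. The 7 members above the line, RPS2, RPL7A, RPL36A, RPS3A, RPS18, RPL17 and RPS7, have pseudogene rows that sum to more than the gene itself.

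The table also held 619 rows of ribosomal protein pseudogenes, near copies of the mRNA of 71 members. Pseudogene rows held 1.31%, 1.06% and 1.78% of the summed FPKM in TSN, against 1.41%, 1.34% and 1.07% in DMSO, the order of the members' own share at the top. For 7 members the pseudogene rows summed to more than the gene. The row RPS2P5, picked after its values were seen, was at 1032, 755 and 1499 FPKM in TSN, against 1281, 1182 and 805 FPKM in DMSO, while RPS2 itself was at 6.09, 4.49 and 9.26 FPKM in TSN, against 7.27, 6.64 and 4.31 FPKM in DMSO. For RPL7A, 31 such rows averaged 109 FPKM in sum, for RPL36A 12 rows averaged 129 FPKM, for RPS3A 21 rows averaged 53.5 FPKM and for RPS18 4 rows averaged 28.9 FPKM. The values of these genes are uncertain, since fragments that match gene and copy could have gone to either row. RPS25 and RPS9 had no pseudogene row. Of 97 pseudogene rows that were tested 0 were called, and their median log2 fold change was 0.20, beside 0.21 for the members.

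Among ribosomal proteins outside the symbol rule, FAU and RACK1 had the same library at the top; FAU is named beside the rule for its role. FAU, made as a fusion of a ubiquitin-like protein with a small subunit protein, was at 200.3, 125 and 389 FPKM in TSN, against 232, 204 and 123 FPKM in DMSO. RACK1, a scaffold on the small subunit, was at 1688, 1308 and 2380.2 FPKM in TSN, against 1615, 1721 and 1327 FPKM in DMSO. Both were highest in TSN 3, and neither they nor RPL22L1 and RPL26L1 were called. Listed genes whose mRNAs also carry a TOP tract, mostly translation factors, differed among themselves. The list also holds HNRNPA1, NAP1L1, TPT1, NACA and BTF3, which are not initiation or elongation factors. The 19 listed genes in the table, with EEF1A1 the largest part, summed to 10668, 9996 and 10466 FPKM in TSN, against 9780.2, 10155 and 9279.9 FPKM in DMSO. Of 18 tested, 0 were called (1 at an unadjusted p below 0.05), and the lowest adjusted p was that of NAP1L1 (log2 fold change 0.42, limma adjusted p = 0.0677). EEF1A1, which carries aminoacyl-tRNA to the ribosome, was at 5222, 4818 and 5008 FPKM in TSN, against 4575, 4799 and 4306 FPKM in DMSO (log2 fold change 0.14). EEF2, which moves the ribosome along the mRNA, had a log2 fold change of 0.19. The median over the 18 tested genes of the list was 0.05. EIF3G and EIF3A, subunits of an initiation factor named here after their values were seen, took opposite orders, but their coding lengths were 960 and 4146 bp. For other protein-coding genes the median difference, TSN 3 minus DMSO 3, was 0.02 at 600 to 1000 bp and -0.83 above 2000 bp. EIF3G was at 545, 397 and 995 FPKM in TSN, against 693, 665 and 474 FPKM in DMSO, and EIF3A was at 91.7, 136 and 37.0 FPKM in TSN, against 128, 135 and 189 FPKM in DMSO.

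The genes that act on ribosomal proteins were measured from lists, and 12 of them passed the test. Of the promoter factors, 1 rose and 3 fell among 11 tested, beside 7.71% and 7.2% of all genes. MYC was at 93.0, 89.7 and 77.1 FPKM in TSN, against 215, 210.3 and 209 FPKM in DMSO, with no overlap (log2 fold change -1.28 ± 0.13 SE, limma adjusted p = 0.00361). E2F1 was at 127, 114 and 143 FPKM in TSN, against 54.5, 56.4 and 46.6 FPKM in DMSO (log2 fold change 1.27 ± 0.15 SE, limma adjusted p = 0.00479). YY1 fell by 0.74 on the log2 scale (limma adjusted p = 0.0273), and GABPA, whose motif was counted above, fell by 1.05 (limma adjusted p = 0.0491). In TSN 3, where nearly all members were highest, MYC was at its lowest and E2F1 at its highest. Their coding lengths were 1362 and 1311 bp. Other protein-coding genes of 1000 to 2000 bp had a median deviation of -0.28 in TSN 3. Over DMSO 1 to 3 MYC hardly differed, while the members' medians were 0.13, 0.03 and -0.46. A link between these orders and the members was not tested.

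Of the genes that control TOP mRNAs and S6 phosphorylation, 1 rose and 1 fell among 20 tested, beside 7.71% higher and 7.2% lower over all genes. LARP1, which binds the cap and the tract shown above, was at 33.5, 47.4 and 21.2 FPKM in TSN, against 69.4, 73.2 and 98.4 FPKM in DMSO. The groups of LARP1 did not overlap (log2 fold change -1.27 ± 0.30 SE, limma adjusted p = 0.0386), and its order within each group was the reverse of the members' order, lowest in TSN 3 and highest in DMSO 3. LARP1 is a long gene (3057 coding bp), and other protein-coding genes above 2000 bp took the same order. Their median deviations were -0.05, 0.26 and -0.54 in TSN 1 to 3, and -0.01, 0.01 and 0.29 in DMSO 1 to 3. With the length and GC trend removed, the log2 fold change of LARP1 was -1.15 (limma adjusted p = 0.00351). DDIT4, an inhibitor of mTORC1 signalling, was at 181, 155 and 175 FPKM in TSN, against 107, 107 and 87.0 FPKM in DMSO (log2 fold change 0.76 ± 0.15 SE, limma adjusted p = 0.0208). In the list of chaperones and importers of ribosomal proteins, 0 genes rose and 4 fell among 16 tested, beside the same shares over all genes. The list also holds NUFIP1 and NCL, which are not dedicated chaperones or importers of these proteins. GRWD1, the human counterpart of a yeast chaperone of Rpl3, was at 32.7, 29.4 and 42.6 FPKM in TSN, against 65.5, 66.5 and 57.5 FPKM in DMSO (log2 fold change -0.85 ± 0.17 SE, limma adjusted p = 0.0231). NUFIP1 fell by 0.82 (limma adjusted p = 0.0296). The other 2, named to complete the count, were NCL, which encodes nucleolin and fell by 1.00, and BCCIP, which fell by 0.58. These calls were sensitive to the libraries kept: without TSN 1, 0 list genes passed and 24 of 11074 genes were called in all, and without DMSO 1, DMSO 2 or DMSO 3, 3 list genes passed each time.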

How the data were processed

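RNA-seq had been run on MOLM-13 cells, 3 TSN and 3 DMSO libraries. The authors deposited a table of FPKM values for 30741 genes in 6 library columns, whose unit follows from the values; depth per library was estimated from the steps between low values (37151686 to 50408315 fragments). DESeq2 1.26.0 and GRCh38 are named in the submitters' processing notes; aligner, annotation and strand setting: not given in the sources used here. All 80 members matched GENCODE 29, used for lengths, GC content and overlaps. The test was limma (version 3.58.1, R 4.3.3), first checked on simulated data. There each gene was drawn independently, so the check does not cover a library shift shared between genes. For genes that reached 1 FPKM in 3 libraries or more, limma was run on log2(FPKM + 1) with trended, robust moderation. The threshold was a Benjamini-Hochberg adjusted p below 0.05. A fold change on the log2(FPKM + 1) scale understates the change of low genes. A second fit subtracted each library's median over the members. Near the floor means a mean below 5 FPKM or not tested. A few genes of the set are not reported here by name. The members and lists were chosen with earlier results of these data known. Named members were the 6 highest and 6 lowest fold changes among members whose higher group averaged 5 FPKM or more, the 5 highest means, those near the floor and a list of roles; of each pathway list, up to 2 higher and 2 lower genes, or the 2 of highest mean. Listed genes were counted in both directions over 10 lists, those of cell type markers included. Alternatives covered pseudocount, filter, scaling, length and GC trend, moderation, library weights, replicate block and left-out libraries.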

Additional observations from a re-analysis of the deposited data

How the results depend on the processing

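Members called between TSN and DMSO numbered 0 with all libraries, 2 lower with the length and GC trend removed (RPL17 and RPS9), 1 with plain moderation, 16 with library weights (7 higher, 9 lower), 0 to 1 with any single library left out and 1 without both TSN 3 and DMSO 3. Relative to the members' median, 0 were called, 42 with library weights (7672 of 11440 genes in all), 0 with any single library left out and 2 without both TSN 3 and DMSO 3 (740 of 10790 genes in all). Under library weights RPL5 changed sign relative to the members' median, at 0.0894 (limma adjusted p = 0.0175) against -0.14; the weights called 8161 of 11440 genes, and the estimate of the weights did not fully converge. All genes called were 1706, against 777 when every gene was kept, 1002 when genes needed a mean of 5 FPKM, 3420 with the trend removed, 24 to 2513 with any single library left out and 2978 without both TSN 3 and DMSO 3. Pathway list genes called, not counting the cell type markers, were 12, 0 to 19 with any single library left out and 22 without both. The cause of these changes was not tested, beyond the smaller number of libraries or genes in some. The members' median ran from -0.11 to 0.51 with any single library left out, and was -0.27 without both TSN 3 and DMSO 3, against 0.21 with all libraries. The SD of library medians within groups was 0.48. That SD comes from the same libraries that were left out, so it cannot tell whether these shifts are large or small. Quantile normalization gave 0.02 and median-ratio scaling 0.33 (members above 0: 44 and 70). The log2 ratio of the members' share of summed FPKM was 0.20, and -0.04 to 0.37 with any single library left out.

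With the replicate number as a block, 0 members and 0 of 11440 genes were called (2121 genes at an unadjusted p below 0.05, none of them a member). Same-numbered libraries did not deviate together: they correlated at -0.317, -0.646 and -0.835 in their deviations from the group means, and TSN 2 went with DMSO 3 (0.865) and TSN 3 with DMSO 1 (0.742). These correlations cannot tell whether same-numbered libraries were handled together.

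Depth limits RPS25, at 0 to 4 fragments per library; the other members given here rest on at least 19.9 estimated fragments. With 3 libraries per group and a shared library shift of this size, the absence of calls does not show that the members were equal in TSN and DMSO.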
